A study of Rattus norvegicus with 81 samples.

Results

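Lysosomal proteases and membrane proteins were followed in the rat mammary gland through 10 genes: the cathepsins Ctsb, Ctsd, Ctsl, Ctsk, Ctss and Ctsz, the peptidase Tpp1, the lysosome-associated membrane proteins Lamp1 and Lamp2, and the tetraspanin Cd63. They were chosen by name as genes of this organelle, with earlier results of these data known. Each was read from the array's transcript cluster that carries its symbol alone, which was 1 cluster per gene. A cluster was found for 9 of the 10 genes, among 18166 genes with a cluster of their own. Ctsz has no entry in the probe annotation used here and is unnamed on the array. The separately normalized table of diethyl phthalate arrays held 7 of the 10 among 6762 genes, without Lamp1 and Cd63.

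The lysosome is an acidic organelle in which enzymes break down proteins, lipids and sugars delivered by endocytosis and autophagy. Cathepsins B, L, K, S and Z are cysteine proteases, cathepsin D is an aspartic protease, and Tpp1 removes tripeptides from the ends of proteins. Cathepsin K is best known for the cleavage of collagen by osteoclasts and is also made by fibroblasts, and cathepsin S processes the invariant chain of MHC class II molecules in antigen-presenting cells. Lamp1 and Lamp2 coat the inner face of the lysosomal membrane, and Cd63 marks late endosomes, lysosome-related organelles and exosomes. In the mammary gland, cathepsins have been studied in ductal remodelling and in the involution that follows lactation.

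RNA came from the caudal mammary glands of 81 rats, all female and of the Sprague-Dawley strain, in 18 groups. Animals received the plasticizer diethyl phthalate (DEP), the preservative methyl paraben (MPB), the antibacterial triclosan (TCS) or, as controls, olive oil alone (OIL), the chemicals at low doses set to give urinary levels like those of the population of the United States. Exposure ran over gestation days (GD) 1-20 through the dam, postnatal days (PND) 1-20 through the milk of treated dams, PND 21-41 through milk and then gavage, or PND 42-62 by gavage, and glands were taken at PND 21, 21, 42 and 63. A chronic window of TCS or OIL ran from birth through mating and pregnancy to the end of lactation at PND 146. Each of the short-window groups held 5 arrays, except TCS after PND 1-20 with 4 and TCS after PND 21-41 and after PND 42-62 with 3, and both chronic groups held 3. At PND 21 each array was a pup from a litter of its own. The labels do not state the litter at later ages, so p-values there measure the spread between these animals. Age at sacrifice moved together with the exposure window, and the 2 cannot be told apart in any age comparison.

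Values are log2 expression after RMA, an Affymetrix method that corrects background, normalizes arrays to a common distribution and summarises probes, and 1 unit is a doubling. The number of arrays sets the precision. The tissue was whole gland with its fat pad. Over the 55 MPB, TCS and OIL arrays of the short windows the adipocyte gene Adipoq ranged from 11.83 to 13.41, the epithelial keratin Krt8 from 6.70 to 9.97 and the macrophage receptor Csf1r from 9.28 to 11.22. Skeletal muscle RNA also varied, with Acta1 from 7.12 to 13.69, and 7 arrays of this set, 7 of the DEP and OIL table and 1 chronic OIL array were rich in it. In such bulk tissue, fewer cells of a type and less RNA per cell cannot be told apart.

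Promoter sequences are shown because lysosomal genes as a family are known for the palindrome CACGTG, the core of the element read by the TFEB and MITF family of transcription factors, which also bind TCATGTG. RefSeq windows of the GRCr8 build, the 250 bases before each gene's annotated start, were at hand for 9 of the 10 genes, all but Ctsb. CACGTG was present in 3 of these 9 windows, those of Lamp1, Ctsd and Cd63, and in 5.59% of all 33469 windows. TCATGTG, searched on both strands, was present in Tpp1, Ctsk and Cd63 and in 3.07% of all windows, and no match of the one motif overlapped the other. Lamp1 had 5 CACGTG matches, beginning 183, 167, 150, 65 and 38 bases before the start. Windows with 5 or more were 0.00299% of all, a share that counts the Lamp1 window itself. Ctsd had 2, at 157 and 10 bases, and Tpp1 had 2 TCATGTG matches, at 39 bases on its own strand and 26 bases on the opposite one. Capitals mark the CACGTG matches in the first pair of sequences here and the TCATGTG matches in the Tpp1 and Ctsk sequences, where the opposite strand reads CACATGA.
Lamp1, chr16:83075064-83075313, minus strand: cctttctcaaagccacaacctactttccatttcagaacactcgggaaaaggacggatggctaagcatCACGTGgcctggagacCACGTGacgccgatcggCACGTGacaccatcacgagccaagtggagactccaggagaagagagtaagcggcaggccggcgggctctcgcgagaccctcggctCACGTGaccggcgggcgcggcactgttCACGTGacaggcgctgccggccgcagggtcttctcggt
Ctsd, chr1:206968822-206969071, minus strand: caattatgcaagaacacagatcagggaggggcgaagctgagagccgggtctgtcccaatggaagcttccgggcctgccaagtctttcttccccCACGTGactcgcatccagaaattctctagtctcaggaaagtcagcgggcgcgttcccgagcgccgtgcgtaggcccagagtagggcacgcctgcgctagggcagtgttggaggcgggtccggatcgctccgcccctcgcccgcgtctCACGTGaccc
Tpp1, chr1:169515940-169516189, minus strand: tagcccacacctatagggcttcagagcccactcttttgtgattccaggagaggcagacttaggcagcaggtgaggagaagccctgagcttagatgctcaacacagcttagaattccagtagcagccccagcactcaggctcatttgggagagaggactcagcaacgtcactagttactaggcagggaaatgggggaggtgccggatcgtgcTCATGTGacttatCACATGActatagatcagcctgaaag
Ctsk, chr2:185747298-185747547, plus strand: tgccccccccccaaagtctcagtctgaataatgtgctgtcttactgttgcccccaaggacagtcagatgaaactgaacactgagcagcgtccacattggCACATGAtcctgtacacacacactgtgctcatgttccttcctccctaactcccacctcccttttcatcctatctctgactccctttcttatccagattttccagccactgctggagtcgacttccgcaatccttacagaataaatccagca
Ctss, chr2:185775146-185775395, plus strand: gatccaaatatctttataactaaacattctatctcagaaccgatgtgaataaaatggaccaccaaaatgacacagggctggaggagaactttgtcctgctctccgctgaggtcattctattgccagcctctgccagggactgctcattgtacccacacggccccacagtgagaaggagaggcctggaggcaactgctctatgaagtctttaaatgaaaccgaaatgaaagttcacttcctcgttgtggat
Ctsk and Ctss lie near each other on rat chromosome 2 in the same orientation, with 2 annotated genes starting between them, and are shown for that reason. Their windows held 3 and 5 CG dinucleotides, against 25 in Lamp1, 22 in Ctsd and a median of 5 over all windows. A match is a stretch of letters and not a measured binding site.

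Between PND 21 and PND 42 the glands of OIL animals showed higher levels of several lysosomal protease transcripts, most of all of the collagen-cleaving cathepsin Ctsk. Of the 9 genes measured, 5 rose and 0 fell, namely Ctsk, Ctsd, Ctsb, Tpp1 and Lamp2. Among all genes 12% rose and 10.5% fell in this comparison. The median difference of the 9 genes was 0.24 on the log2 scale, beside 0.01 for all genes. The comparison used the 20 OIL arrays of the short windows in limma with batch as a term, took PND 21 as the mean of both perinatal groups, and adjusted p over 18166 genes at a threshold of 0.05.

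Ctsk read 9.44, 10.19, 10.06, 9.68 and 9.87 in the OIL arrays after GD 1-20 and 10.31, 10.67, 10.38, 9.35 and 9.75 after PND 1-20. At PND 42 it read 10.75, 11.28, 11.14, 10.99 and 10.97. The lowest array at PND 42 thus lay above the highest at PND 21. The share of all genes without overlap is not given for any comparison, so statements of overlap here and below only describe the values. Ctsk was 2.08-fold higher at PND 42 (log2 difference 1.06 ± 0.15 SE, limma adjusted p = 7.42e-05). Each batch alone showed the rise, with 0.88 in batch 1 and 1.32 in batch 2, and passed the threshold.

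Ctsd, the main aspartic protease of the lysosome, read 10.85, 11.22, 11.10, 10.79 and 10.96 after GD 1-20 and 11.00, 11.13, 11.33, 10.95 and 10.89 after PND 1-20. At PND 42 it read 11.70, 11.76, 11.62, 11.46 and 11.59. Its groups did not overlap either. Ctsd was 1.52-fold higher at PND 42 (0.60 ± 0.07, limma adjusted p = 8.98e-06), and the batches taken alone gave 0.59 and 0.63.

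Ctsb, a broad cysteine protease, ranged from 12.08 through a median of 12.46 to 12.61 in the 10 arrays at PND 21, and read 12.87, 12.83, 12.87, 12.60 and 12.48 at PND 42. The groups overlapped, with the batch 2 arrays of PND 42, the last 2 values, inside the range of PND 21. Ctsb was higher in batch 1 in 8 of 8 OIL and MPB groups, by 0.31 on average. Once batch was a term, Ctsb was 1.25-fold higher at PND 42 (log2 difference 0.32 ± 0.06, limma adjusted p = 0.000525), and without that term the same difference gave an adjusted p of 0.0585.

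Tpp1 ranged from 10.08 to 10.43 with a median of 10.20 at PND 21, and read 10.50, 10.24, 10.29, 10.55 and 10.74 at PND 42, an overlap of the groups and a rise of 0.24 ± 0.07 (limma adjusted p = 0.0143). Lamp2, whose A isoform is the receptor for chaperone-mediated autophagy, ranged from 11.84 to 12.23 with a median of 12.01 at PND 21, and read 12.53, 11.95, 12.39, 12.20 and 12.15 at PND 42. Its rise was 0.24 ± 0.08 (limma adjusted p = 0.0458), next to the threshold. The call for Lamp2 was lost on leaving out any of 11 of the 15 arrays, with adjusted p between 0.0612 and 0.168, and that for Tpp1 on leaving out replicate 5 of OIL after PND 21-41, with an adjusted p of 0.063. Without the arrays rich in muscle RNA, Lamp2 differed by 0.15 (adjusted p = 0.377) and Tpp1 by 0.20 (adjusted p = 0.144), and Ctsk, Ctsd and Ctsb stayed past the threshold.

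The other 4 genes did not pass the threshold in OIL. Ctsl, a cysteine protease close to Ctsk in sequence, differed by 0.34 ± 0.12 (limma adjusted p = 0.0562). It read 11.86, 11.32, 11.18, 11.95 and 11.42 at PND 42 against 10.71 to 11.67 at PND 21, with a median of 11.20. Its adjusted p fell below 0.05 when genes with a mean under 6 were left out (0.0475) and with the OIL values of the DEP and OIL table (0.0355). Cd63 differed by 0.16 ± 0.07 (adjusted p = 0.139) and Ctss by -0.13 ± 0.19 (adjusted p = 0.694). For Ctss the 95% interval ran from -0.54 to 0.27, wide enough to hold changes of either direction. Lamp1, a major glycoprotein of the lysosomal membrane, differed by 0.04 ± 0.05 (adjusted p = 0.67), with an interval from -0.07 to 0.15. The Lamp1 values were 11.34 to 11.62 at PND 21 and 11.44 to 11.66 at PND 42.

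**Figure D1:**
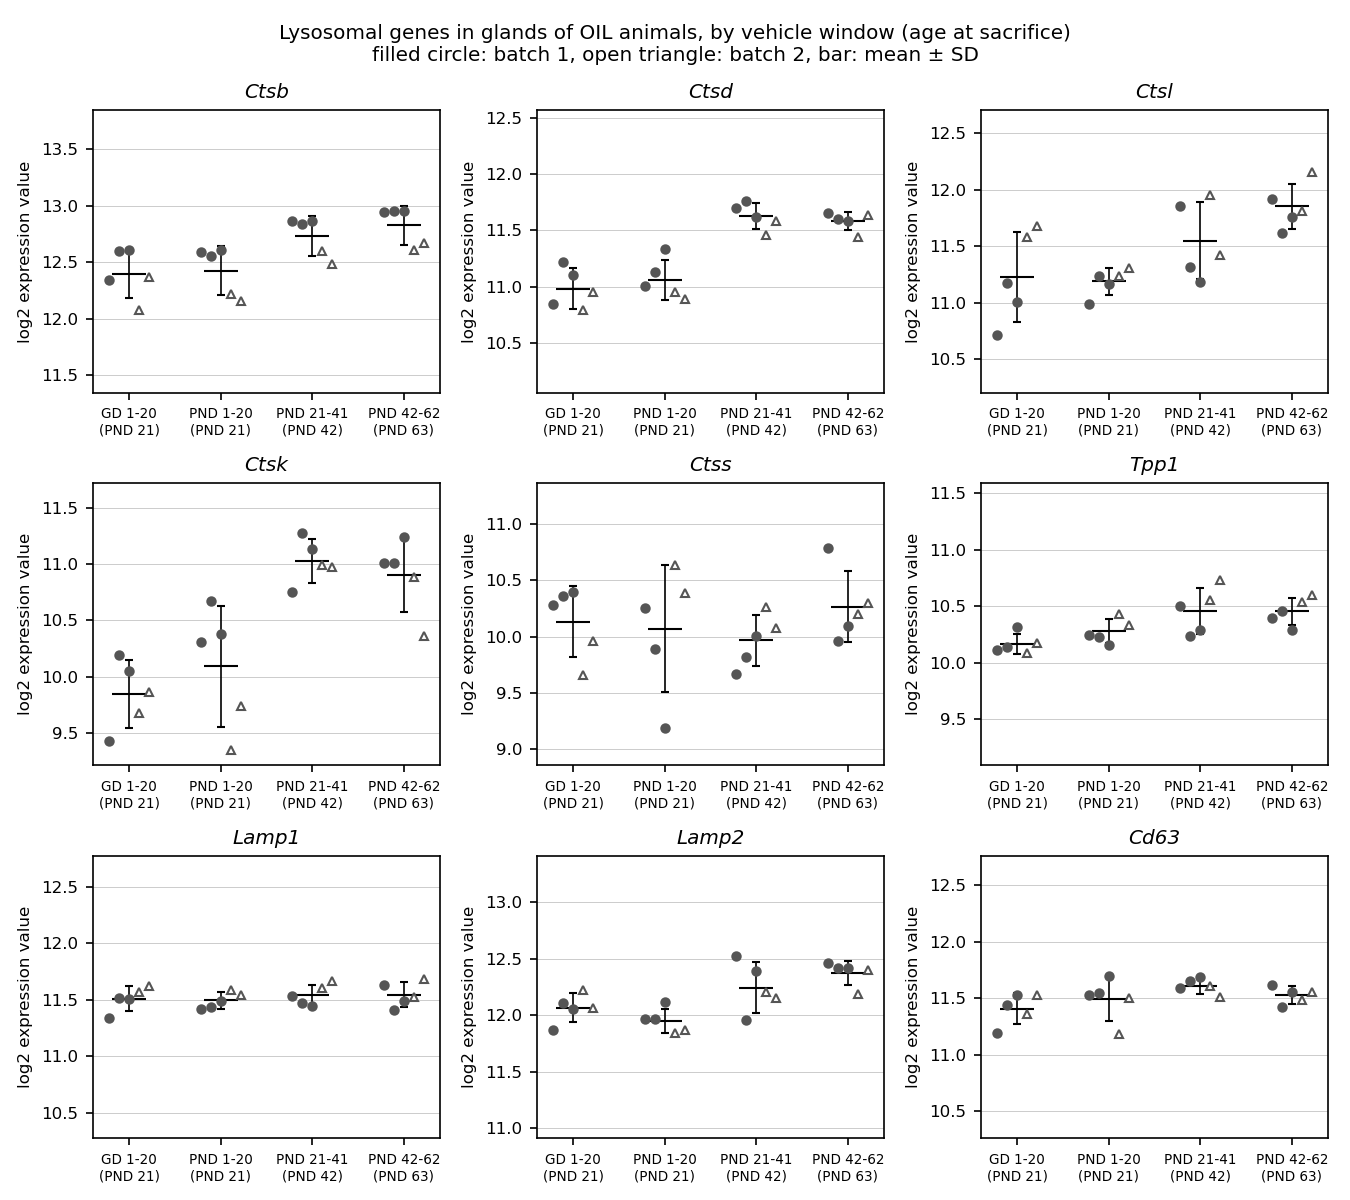
Log2 expression value (vertical axis, 2.5 log2 units in every panel) of 9 lysosomal genes in the 20 OIL arrays, by vehicle window and age at sacrifice. Circles are batch 1, triangles batch 2, and bars the mean ± SD of 5 arrays. Ctsk and Ctsd step up between PND 21 and PND 42 without overlap, Lamp1 stays within 11.34 to 11.68, and Ctss spreads from 9.19 to 10.78.

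Marker lists for the cell types of the gland moved in the same comparison, and their part in the rises above was not tested. All 10 fibroblast markers were higher in OIL at PND 42, 5 of them past the threshold, with a median of 0.29, and the list's score ran from -0.62 to 0.36 at PND 21 and from 0.00 to 0.72 at PND 42. Of 14 macrophage markers 3 rose and 1 fell, with a median of 0.17 and scores from -0.51 to 0.16 and from -0.13 to 0.27. Luminal epithelial markers rose in 11 of 12 cases with a median of 1.47, 9 of 10 adipocyte markers fell with a median of -0.63, and 8 of 10 T and NK cell markers fell with a median of -2.04. Of 8 B cell markers 7 fell, with a median of -1.30, and 0 of 9 muscle markers passed, with a median of 0.55. With the macrophage score as a covariate 5 of the 9 lysosomal genes were called, and with the muscle and B cell scores 4. Among all 18166 genes these fits called 4526 and 1673, beside 4073 in the main fit. The fibroblast, luminal epithelial, adipocyte and T and NK cell scores were not fitted as covariates. These counts do not measure the part of any cell type.

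Beyond the 10 genes, further lysosomal proteases rose in the same OIL comparison. Of 12 listed proteases 11 were measured, 6 rose and 1 fell, with a median of 0.22. Lgmn, the asparaginyl endopeptidase that trims cathepsins, rose by 0.52 ± 0.08 in OIL (limma adjusted p = 0.000102). Ctsw, a cathepsin known from cytotoxic T and NK cells, fell by 1.38 on the log2 scale (SE 0.36, limma adjusted p = 0.00824). Of 25 other measured lysosomal hydrolases and activator proteins, 4 rose and 1 fell, beside 12% and 10.5% of all genes, with a median of 0.07. Hexa, a hexosaminidase subunit, rose by 0.42 ± 0.07 and Fuca1, the lysosomal fucosidase, by 0.44 ± 0.08. The others, Glb1 and Smpd1 rising and Hyal1 falling, were named after their values were seen. Of 17 subunits of the proton pump that acidifies the lysosome, the V-ATPase, 3 rose and 1 fell, with a median of 0.06, namely Atp6v0d1, Atp6v1b2 and Atp6v1d rising and Atp6v1h falling, likewise named after their values were seen.

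Of 22 measured genes of the lysosomal membrane and of enzyme sorting, 7 rose and 3 fell, with a median of 0.06. Among all genes 12% rose and 10.5% fell, which also stands beside the cystatins and regulators below. Laptm4b, a transmembrane protein of late endosomes, rose by 0.65 ± 0.12 (limma adjusted p = 0.00047). Laptm5, its blood-cell relative, fell by 0.98 (SE 0.32), and Lamp3, a marker of mature dendritic cells, fell by 0.83 (SE 0.19). Of 5 cystatins, inhibitors of cysteine cathepsins, Cst6 rose by 0.70 ± 0.11 and Cst7, found in cytotoxic and myeloid cells, fell by 0.60 (SE 0.19). Of the 4 MITF and TFE family regulators, Tfeb fell by 0.30 (SE 0.09, limma adjusted p = 0.0151), and Mitf, named after its value was seen, rose by 0.64 ± 0.12. The lists were not tested as sets, and the sharing of direction is given as counts only.

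The same age step was examined in the animals given each chemical, which share no arrays with each other or with OIL. Ctsk was past the threshold in all 4 treatments. Its log2 difference was 0.88 ± 0.14 in MPB (limma adjusted p = 0.00126), 1.11 ± 0.20 in TCS (adjusted p = 0.00292) and 1.20 ± 0.12 in DEP (adjusted p = 3.1e-06). These are folds of 1.84, 2.15 and 2.30. Differences in the size of the step between treatments were not tested directly.

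In MPB, Ctsk was the only member of the 9 to pass, and 3.53% of all genes rose and 4.18% fell. Ctsk ranged from 9.10 to 10.44 with a median of 10.07 in the 10 MPB arrays at PND 21, and read 10.98, 10.87, 10.74, 11.03 and 10.20 at PND 42. The last of these, in batch 2, lay inside the range of PND 21. It was above the batch 2 arrays of that age, which read 9.31, 9.10, 9.61 and 9.50. Ctsk was higher in batch 1 in 8 of 8 OIL and MPB groups, by 0.46 on average. Within batch 1 the rise was 0.65 and within batch 2 it was 1.23, where the adjusted p was 0.18. Batch 2 alone called 1 of all 18166 genes. Ctsd differed by 0.31 ± 0.10 in MPB (limma adjusted p = 0.0679), and Ctsb by 0.22 ± 0.08 (adjusted p = 0.116).

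In TCS, Ctsk and Ctsd rose, 2 of 9, while 8.87% of all genes rose and 4.71% fell. Ctsk read 11.05, 11.24 and 10.37 at PND 42, above all 9 arrays of PND 21, which ranged from 9.01 to 9.97. The PND 42 arrays of TCS were all in batch 1, so the fitted difference of 1.11 is smaller than the difference of 1.27 between the group means. Ctsd read 11.56, 11.65 and 11.09 against 10.62 to 11.07 at PND 21, again without overlap, and differed by 0.45 ± 0.12 (limma adjusted p = 0.0193). With the muscle and B cell scores as covariates the Ctsk difference was 0.63 in place of 1.11 (limma adjusted p = 0.00402). The Ctsd call was lost without replicate 1 or replicate 2 of TCS after PND 21-41 (adjusted p = 0.118 and 0.126). Ctsb and Tpp1 in TCS also showed no overlap between PND 42 and PND 21 but did not pass, at adjusted p of 0.103 and 0.123.

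In DEP, 5 of 7 measured members rose, Ctsk, Ctsd, Ctsb, Lamp2 and Tpp1, in a table where 22% of genes rose and 13.6% fell. That table kept only the more variable clusters, with an SD over arrays of at least 0.15. Ctsk ranged from 9.53 to 10.27 with a median of 9.77 at PND 21, and read 10.74, 10.79, 11.33, 11.09 and 10.96 at PND 42. Ctsd ranged from 10.70 to 11.08 and read 11.37, 11.56, 11.73, 11.49 and 11.53, a difference of 0.60 ± 0.10 (limma adjusted p = 0.000274). Both genes showed no overlap between the ages. Ctsb differed by 0.36 ± 0.09 (adjusted p = 0.00669), Lamp2 by 0.30 ± 0.10 (adjusted p = 0.0324) and Tpp1 by 0.24 ± 0.08 (adjusted p = 0.0332). Without the arrays rich in muscle RNA the count in DEP was 2 of 7, Ctsk and Ctsd, while 2002 of 6762 genes were called. Leaving out replicate 2, 3 or 4 of DEP after PND 21-41 gave a count of 3 each time, Lamp2 and Tpp1 being lost. Over all leave-outs of 1 array, 1816 to 2841 of 6762 genes were called.

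**Figure D2:**
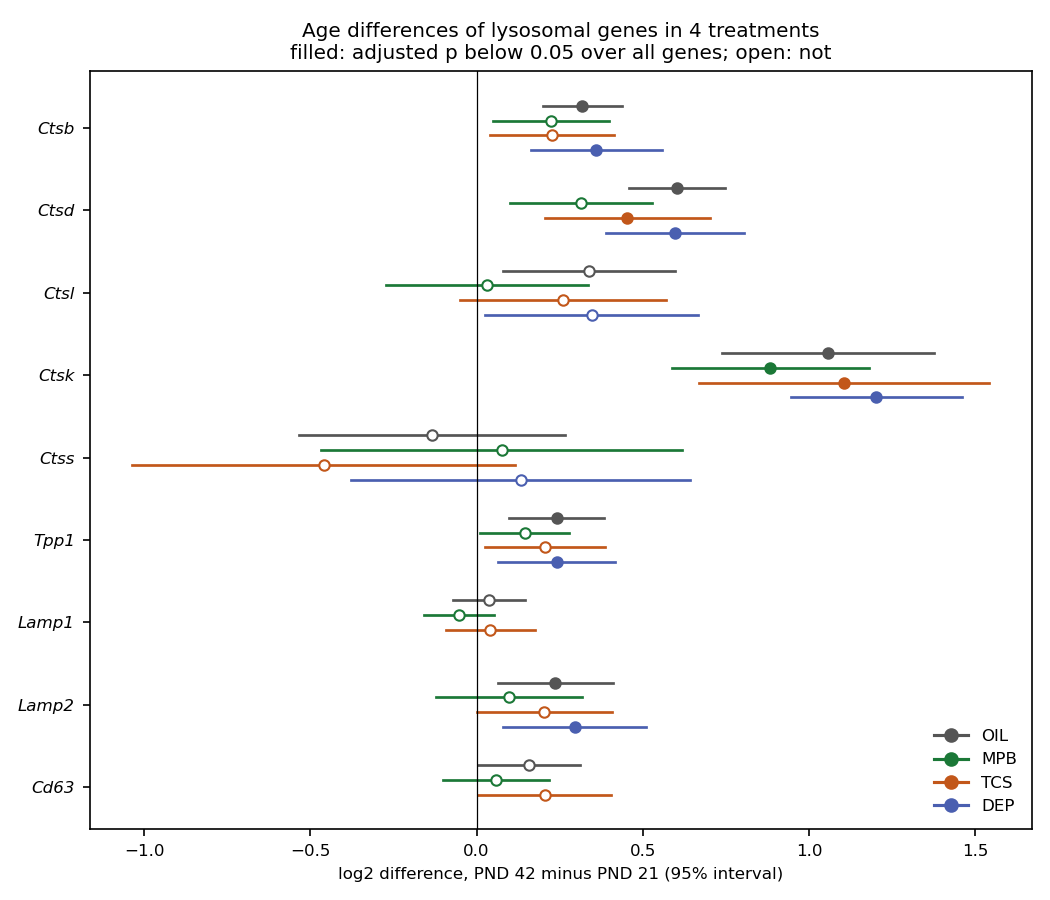
Log2 difference between PND 42 and PND 21 (horizontal axis) for each gene in OIL, MPB, TCS and DEP animals, with 95% intervals. Filled points have an adjusted p below 0.05 over all genes of the table. Ctsk is filled in all 4 treatments, at 0.88 to 1.20, and Ctss spans from -0.46 to 0.13 with intervals that include 0.

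The lysosomal genes named from OIL were also read in the chemical groups. Lgmn rose by 0.43 ± 0.09 in MPB, 0.46 ± 0.10 in TCS and 0.54 ± 0.11 in DEP, and passed in all of them. Hexa rose by 0.30 ± 0.08, 0.34 ± 0.10 and 0.38 ± 0.10 in the same order and passed in all of them too. Cst6 rose by 0.71 ± 0.11 in TCS and 0.62 ± 0.12 in DEP, and differed by 0.37 ± 0.14 in MPB (limma adjusted p = 0.111). Fuca1 rose by 0.37 ± 0.09 in MPB and 0.49 ± 0.12 in DEP. In TCS Fuca1 differed by 0.26 ± 0.12 and did not pass (limma adjusted p = 0.177). Laptm4b rose by 0.56 ± 0.13 in TCS. It differed by 0.35 in MPB and 0.50 in DEP without passing (limma adjusted p = 0.22 and 0.0827). Among the measured proteases 2 of 11 rose in MPB, 1 of 11 in TCS and 4 of 9 in DEP, and 0 fell, while 3.53%, 8.87% and 22% of all genes rose. Of the genes that fell in OIL, Laptm5, Lamp3, Ctsw and Cst7 did not pass in any chemical where they were measured, Lamp3 not being in the DEP table. Ctsw differed by -0.21 in MPB, -1.75 in TCS and -0.97 in DEP (limma adjusted p = 0.895, 0.0543 and 0.154). Tfeb fell by 0.35 (SE 0.12) in DEP (limma adjusted p = 0.031) and did not pass in MPB or TCS. Mitf rose by 0.79 ± 0.20 in TCS and 0.65 ± 0.14 in DEP. In MPB Mitf differed by 0.19 ± 0.16 and did not pass (limma adjusted p = 0.58).

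From PND 42 to PND 63 no member passed the threshold in any treatment. Among all genes 0.782% were called in OIL, 0.308% in MPB, 0.0055% in TCS and 0.0887% in DEP. Of the listed lysosomal genes outside the set, only the V-ATPase subunit Atp6v1c1 was called in OIL. It rose by 0.28 ± 0.06 (limma adjusted p = 0.0432). The members with an unadjusted p below 0.05 were Ctsl in OIL, Ctsd and Lamp1 in MPB and Ctsk in DEP. These are 1 of 9, 2 of 9 and 1 of 7 members. Among all genes 2304 of 18166 were below 0.05 in OIL, 2042 of 18166 in MPB and 707 of 6762 in DEP. Ctsk in OIL read 11.01, 11.01, 11.24, 10.89 and 10.36 at PND 63 and differed from PND 42 by -0.12 ± 0.18, with a 95% interval from -0.49 to 0.24. Ctsl was highest at PND 63 in OIL, at 11.91, 11.62, 11.76, 11.81 and 12.16, and differed from PND 42 by 0.31 ± 0.14 (unadjusted p = 0.0448, limma adjusted p = 0.375). With the muscle and B cell scores as covariates Ctsl reached an adjusted p of 0.039 there. In DEP, Ctsk was lower at PND 63 by -0.46 ± 0.14 (unadjusted p = 0.00463, limma adjusted p = 0.303), reading 10.62, 10.80, 10.25, 10.63 and 10.32.

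The perinatal OIL groups, whose dams had received oil before or after birth, were compared at the same age of PND 21. No member passed, and 0% of all genes were called. Differences between GD 1-20 and PND 1-20 ran from -0.25 for Ctsk (limma adjusted p = 0.717) to 0.11 for Lamp2 (adjusted p = 0.771), and all 9 genes overlapped between the groups. The batches taken alone gave opposite signs for Ctss (0.57 in batch 1, -0.70 in batch 2), Ctsk (-0.56 and 0.22) and Ctsl (-0.17 and 0.35). Ctsb, Lamp2 and Cd63 also changed sign, and Ctsd, Tpp1 and Lamp1 did not. No member passed in either batch, where 7 and 253 genes were called.

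Each chemical was then compared with OIL of the same window, the question the study was built on, in 13 comparisons and 109 tests of members. None passed the threshold with limma, and 10 had an unadjusted p below 0.05. These were 3 of 9 members in TCS after GD 1-20, beside 1236 of 18166 genes, and 3 of 9 in chronic TCS, beside 2350. A further 1 of 9 members each came from MPB after PND 21-41 and PND 42-62, beside 1788 and 3241 genes. TCS after PND 1-20 and PND 42-62 also gave 1 of 9 each, beside 1135 and 547 genes. The smallest adjusted p of a member was 0.23. Among all genes 0% were called in 9 of the 13 comparisons, 0.0148% in DEP after PND 21-41 and 0.0055% each in MPB after GD 1-20, MPB after PND 42-62 and TCS after GD 1-20. Without replicate 2 of MPB after PND 42-62, 861 genes were called in that comparison in place of 1, and 8 without replicate 4 of its OIL group. None of the members was called in either case. The 6 lists of other lysosomal genes had 0 calls in the 13 comparisons. Comparisons of 1 window share their OIL arrays, so their signs are not independent of each other.

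Within those limits Ctsb was lower than OIL in all 12 short-window comparisons, but by little. Its differences ran from -0.18 to -0.01 with a median of -0.10, and no adjusted p was below 0.363. Ctsl was lower in 11 of 12, with a median of -0.19. Lamp2 was lower in 11 of 12 and Ctsk in 10 of 12, with medians of -0.12 and -0.20. Tpp1 was lower in 6 and higher in 6, and Ctss was higher in 9 of 12. The share of all genes with such runs of 1 sign is not given. The Ctsl arrays of MPB after PND 42-62 read 11.23, 11.69, 11.24, 11.31 and 11.98 against 11.91, 11.62, 11.76, 11.81 and 12.16 in OIL, an overlap, and a difference of -0.36 ± 0.15 (limma adjusted p = 0.23). Lamp1 showed the narrowest range over its 8 short-window comparisons, from -0.09 to 0.05.

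Ctsk gave the smallest unadjusted p of the family, in TCS after PND 1-20. The TCS arrays read 9.61, 9.97, 9.63 and 9.18, and those of OIL 10.31, 10.67, 10.38, 9.35 and 9.75. The groups overlapped through the batch 2 arrays of OIL, which read 9.35 and 9.75. The fitted difference was -0.59 ± 0.18 (unadjusted p = 0.00277, limma adjusted p = 0.756), and within batch 1 alone it was -0.72 ± 0.18 (adjusted p = 0.158). After the other short windows the TCS differences of Ctsk were -0.20, -0.21 and -0.11. Ctss was lowest relative to OIL in DEP after GD 1-20, at -0.59, where its arrays read 10.28, 9.71, 8.76, 8.58 and 10.11 against 10.23, 10.29, 10.34, 9.62 and 9.90 in OIL (limma adjusted p = 0.692).

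**Figure D3:**
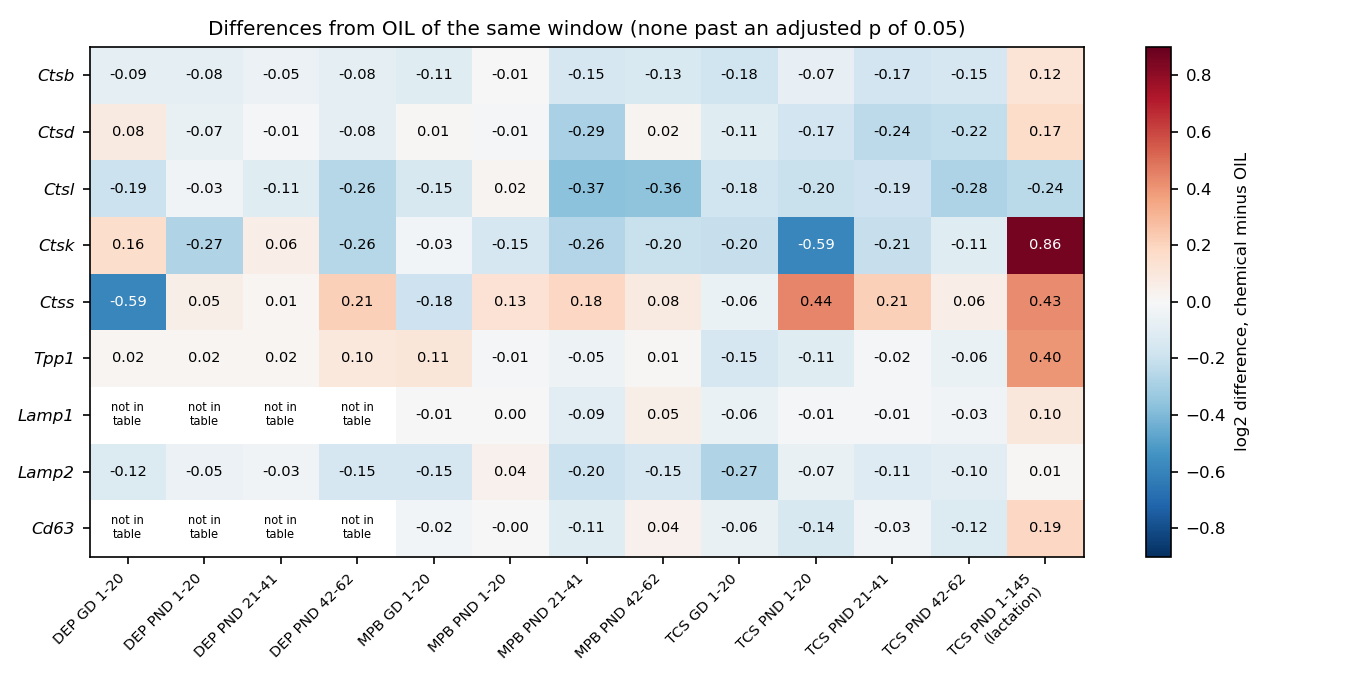
Log2 difference between chemical and OIL arrays of the same window for each gene (rows) and comparison (columns), with red higher and blue lower. Cells marked as not in the table are genes that the DEP and OIL table did not hold. Differences run from -0.59 to 0.86, and none passed an adjusted p of 0.05.

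Whether the effect of a chemical on these genes differed between windows was tested in 50 contrasts, the GD 1-20 effect against the PND 1-20 effect and an F test across the 4 short windows for each gene and chemical. None passed the threshold and none had an unadjusted p below 0.05. The smallest adjusted p was 0.656.

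At the end of lactation, 8 of the 9 genes were higher in TCS than in OIL, but none passed with 3 arrays a group. Ctsk read 7.92, 7.06 and 7.95 in TCS and 6.61, 7.30 and 6.44 in OIL, overlapping in 1 array of each, with a difference of 0.86 ± 0.30 (limma adjusted p = 0.323). Tpp1 read 9.80, 9.82 and 9.99 in TCS and 9.33, 9.64 and 9.45 in OIL, without overlap, and differed by 0.40 ± 0.13 (limma adjusted p = 0.317). Ctsl went the other way without overlap, at 11.17, 11.24 and 11.27 in TCS and 11.29, 11.47 and 11.64 in OIL, a difference of -0.24 ± 0.13 (adjusted p = 0.468). The share of all genes that separate in this way with 3 arrays a group is not given. Beside these values, all 10 fibroblast markers and 13 of 14 macrophage markers were higher in TCS, with medians of 0.55 and 0.52 and 0 calls. The fibroblast score ran from -0.19 to 0.90 in TCS and from -0.51 to -0.09 in OIL, and the macrophage score from -0.04 to 0.56 and from -0.52 to -0.03. Muscle markers were lower in TCS in 9 of 9, with a median of -0.86, and 1 OIL array was rich in muscle RNA. The part of these cells in the differences was not tested. Leaving out each array in turn, the array rich in muscle RNA included, the difference ran from 0.69 to 1.15 for Ctsk, from 0.33 to 0.48 for Tpp1 and from -0.33 to -0.15 for Ctsl, with no call.

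The chronic arrays were normalized by themselves, so their levels can only be set beside those of the short windows. Ctsk stood at 6.79 ± 0.46 (SD, n = 3) in lactation OIL animals and at 10.90 ± 0.33 (n = 5) in OIL animals at PND 63. Cd63 stood at 10.50 ± 0.02 and 11.53 ± 0.08, Tpp1 at 9.47 ± 0.15 and 10.46 ± 0.12, and Ctsd at 11.96 ± 0.34 and 11.58 ± 0.08. None of these pairs was tested.

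Among the 12 groups of MPB, TCS and OIL in the short windows, the group means of Ctsk fell into an older and a younger set. All 6 groups at PND 42 and PND 63 had means from 10.70 to 11.03, with SDs from 0.16 to 0.45. All 6 groups at PND 21 had means from 9.60 to 10.09, with SDs from 0.30 to 0.57. The lowest of the older means was 10.70 ± 0.16 in MPB after PND 42-62, and the highest of the younger ones 10.09 ± 0.53 in OIL after PND 1-20. Neighbours in the order of each set of 6 means differed by less than the SD of either group. In the DEP and OIL table the DEP means of Ctsk were 9.89 ± 0.25 after GD 1-20, 9.67 ± 0.15 after PND 1-20, 10.98 ± 0.24 after PND 21-41 and 10.53 ± 0.23 after PND 42-62.

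**Figure D4:**
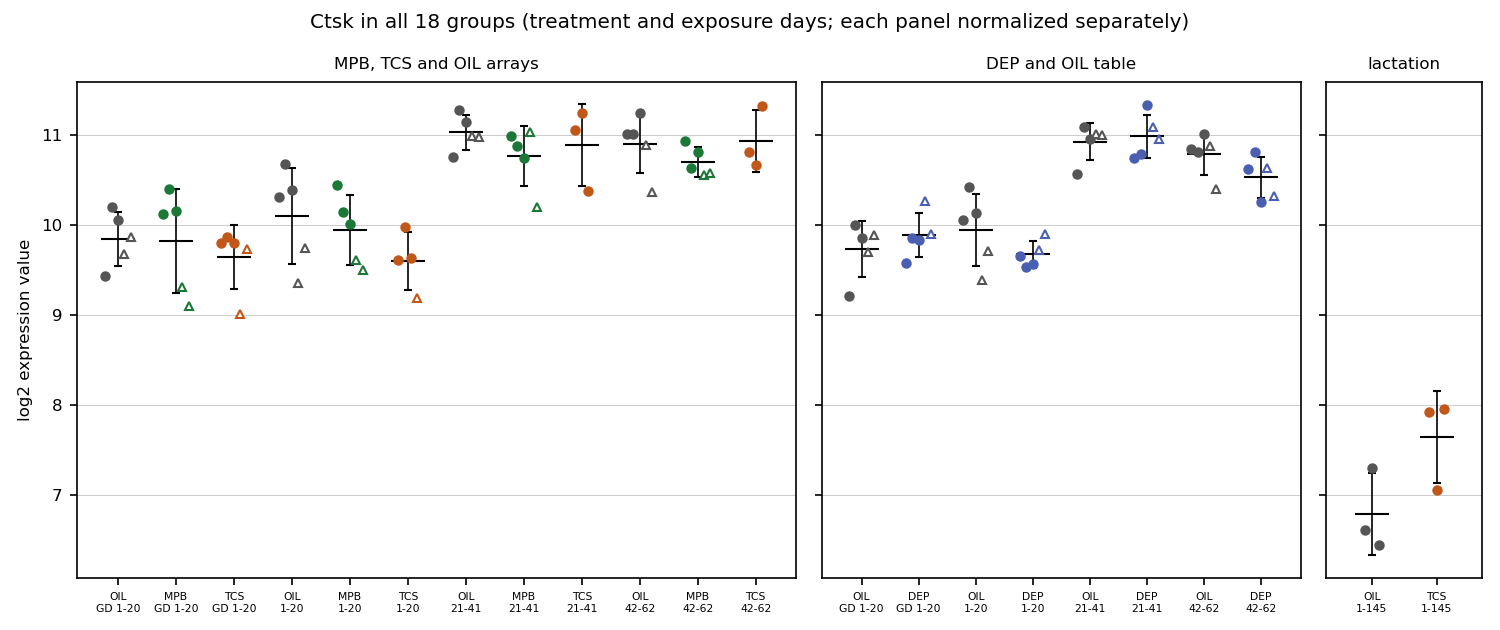
Log2 expression value of Ctsk (vertical axis) in every array of the 18 groups, with treatment and exposure days below. Circles are batch 1, triangles batch 2, bars the mean ± SD, and the 3 panels were normalized separately. Arrays at PND 42 and PND 63 sit between 10.20 and 11.33, those at PND 21 between 9.01 and 10.67, and the lactation arrays between 6.44 and 7.95.

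The members also varied to very different degrees between animals of the same group. After group and batch were removed, the SD over the 55 arrays was 0.49 for Ctss and 0.29 for Ctsk, against a median of 0.19 for all genes. Lamp1 had an SD of 0.06, the lowest of all 18166 genes. Tpp1 and Ctsb varied little as well, at 0.11 each, and Cd63 at 0.12. In OIL after PND 1-20, Ctss read 10.25, 9.89, 9.19, 10.63 and 10.39, a range of over 1 log2 unit, where Lamp1 read 11.42, 11.43, 11.49, 11.59 and 11.55.

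Array to array, the members did not vary as a block. As a description over the same 55 arrays, which share group sizes, batches and normalization, Ctsd and Cd63 had a Pearson r of 0.68, Ctsk and Cd63 of 0.66 and Ctsd and Ctsk of 0.64. Lamp2 varied with Ctsl (0.59) and Ctsb (0.53). Ctss ran opposite to Ctsd (-0.51), Ctsk (-0.46) and Cd63 (-0.40), although it is the near neighbour of Ctsk on chromosome 2.

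**Figure D5:**
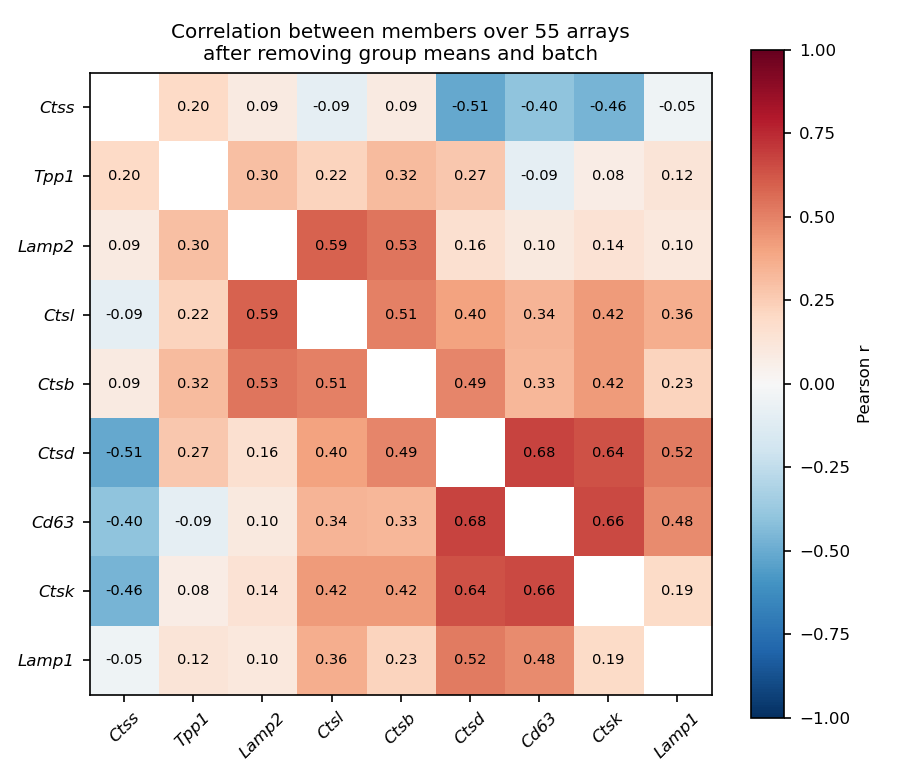
Pearson correlation between 9 lysosomal genes over 55 MPB, TCS and OIL arrays after group means and batch were removed, with red positive and blue negative. Ctsd, Cd63 and Ctsk form a positive corner at 0.64 to 0.68, and Ctss is negative against these genes, at -0.51 to -0.40.

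The genes outside the set whose array-to-array pattern was most like each member were taken as the 5 with the highest Pearson r over the 55 arrays. For Ctsk these were Fstl1 (0.93), Col14a1 (0.92), Cercam (0.92), Mfap2 (0.895) and Col1a2 (0.895), which include a fibril-associated collagen, a microfibril protein and a chain of type I collagen. For Ctss they were Cd4 (0.97), Cybb (0.97), Tyrobp (0.96), Pld4 (0.96) and Aif1 (0.95), where Cybb is the phagocyte NADPH oxidase subunit, Tyrobp a myeloid signalling adaptor and Cd4 in rats a protein of macrophages as well as T cells. Ctsl was closest to Tlr4 (0.85) and Lamp2 to Asah1 (0.89), the lysosomal acid ceramidase. Ctsb was closest to the vitamin B12 carrier Tcn2 (0.74), the lysosomal carboxypeptidase Scpep1 (0.73) and the lysosomal lipid carrier Gm2a (0.73). Ctsd was closest to the haem transporter Slc48a1 (0.82), Cd63 to Rrbp1 (0.83) and Tpp1 to Psenen (0.70). Lamp1, with the least variation, had the lowest best match, Rarres2 at 0.665. These correlations were picked as the highest among all genes and carry no test.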

How the data were processed

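Per the labels' protocols, Affymetrix arrays were prepared from 250 ng of total RNA whose integrity number was 7 or more. The deposited values are log2 expression, 1 per transcript cluster, for which the submitters' processing notes name RMA and Affymetrix Expression Console. Versions and a genome build are not given in the sources used here. MPB, TCS and OIL arrays were read from the value table, DEP from a table with its own OIL values and the chronic arrays from a table of their own. The DEP and OIL table is filtered, and its batch means differ by less (SD over clusters 0.17 in OIL, against 0.40 for the same clusters in the value table), with no adjustment stated in the labels. Over all DEP and OIL arrays of that table this SD was 0.02, and batch was still a term in its fits.

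The cluster with the highest mean stood for each gene. Differences were fitted with limma 3.58.1 (lmFit, eBayes) in R 4.3.3 with data.table (1.17.8), with batch as a term except in lactation, 2-sided, with Benjamini-Hochberg adjustment over all genes and a threshold of 0.05. Age comparisons were fitted within each treatment, and chemicals against OIL with all groups of the same age. A list's score averages, over its genes, the log2 value centred on the gene's mean. An array was called rich in muscle RNA where its muscle score was above 1. Named genes outside the set were the up to 5 rising and 5 falling lysosomal genes with the smallest adjusted p in each OIL age comparison. The members, the lists and the alternatives were chosen with earlier results of these data known. The fits were tested on simulated data. Plots were made in Python 3.11.15 (matplotlib 3.10.9).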

Additional observations from a re-analysis of the deposited data

Results flagged for a closer look

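In 8 of 118 combinations of a gene and a group of 4 or 5 arrays (6.78%), 1 array stood far from the others by Dixon's test, which chance gives in about 1 of 20. Ctss was low in replicate 1 of MPB after PND 1-20 (9.1109, others 10.2265 to 10.6146), where Cd63 was high (11.7209, others 11.3852 to 11.4778), and low in replicate 5 of TCS after GD 1-20 (8.729, others 10.17 to 10.5427), an array rich in muscle RNA. In that TCS group Ctsk was low in replicate 4 (9.0143, others 9.7285 to 9.8683). Ctsb was low in replicate 4 of TCS after PND 1-20 (12.1992, others 12.4717 to 12.4904), the only batch 2 array of its group. Ctsd was low in replicate 1 of DEP after GD 1-20 (10.7032, others 10.9886 to 11.0621), which was rich in muscle RNA. Lamp2 was high in replicate 3 of DEP after PND 42-62 (12.3427, others 12.0835 to 12.1392) and low in replicate 4 of OIL after PND 42-62 (12.1866, others 12.3972 to 12.4614).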

How the results depend on the processing

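No called difference changed sign under any alternative run. The 5 members called in OIL between PND 42 and PND 21 became 2 without a batch term, 3 in batch 1 alone, 2 in batch 2 alone and 3 without arrays rich in muscle RNA, and 4 to 6 on leaving out 1 array. Over all 18166 genes the first 4 of these settings called 2546, 3009, 1268 and 2370, beside 4073 in the main fit. The 5 in DEP became 2 in batch 1, 0 in batch 2, 3 with the muscle and B cell scores as covariates, 2 without arrays rich in muscle RNA and 3 with array medians subtracted, and 3 to 6 on leaving out 1 array. Over all 6762 genes the first 5 of these settings called 1193, 80, 1306, 2002 and 2368, beside 2411 in the main fit. The 1 in MPB became 0 in batch 2 and 2 with either set of scores, Ctsd being added, and 1 to 2 on leaving out 1 array. Batch 2 alone called 1 of 18166 genes in MPB. The muscle and B cell scores gave 2258 calls and the macrophage score 1632, beside 1400 in the main fit. The 2 in TCS became 1 with the muscle and B cell scores, and 1 to 3 on leaving out 1 array. Those scores gave 1541 calls among 18166 genes in TCS, beside 2468 in the main fit. From PND 42 to PND 63 in OIL 1 was called with the muscle and B cell scores, and 0 in every leave-out. The fit with these scores called 512 of 18166 genes, beside 142 in the main fit. The comparisons of chemicals with OIL stayed at 0 in 12 settings and 81 leave-outs, as did the window contrasts. Batch 2 alone had too few TCS arrays to give a value for the age steps of TCS and for TCS against OIL after PND 1-20, 21-41 and 42-62. Ctsk kept its call between PND 42 and PND 21 in 28 of 28 alternatives in OIL, 24 of 25 in MPB, 21 of 21 in TCS and 24 of 25 in DEP. The exception in MPB and DEP was batch 2 alone, where 1 of 18166 and 80 of 6762 genes were called.

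Over all genes and all alternatives, leaving out 1 array included, calls between PND 42 and PND 21 ran from 1268 to 4526 around 4073 in OIL, from 1 to 2258 around 1400 in MPB, from 1126 to 3629 around 2468 in TCS and from 80 to 2952 around 2411 in DEP. From PND 42 to PND 63 they ran from 0 to 512 around 142 in OIL, from 0 to 153 around 56 in MPB, from 0 to 36 around 1 in TCS and from 0 to 25 around 6 in DEP. On leaving out 1 array, the first step in TCS had its fewest calls without replicate 1 after PND 21-41 (1126) and its most without replicate 5 after GD 1-20 (3629). The second step in OIL had its fewest without replicate 3 after PND 42-62 (8) and its most without replicate 1 after PND 21-41 (411), and in MPB its most without replicate 2 after PND 21-41 (153). In MPB against OIL after PND 42-62 they ran from 1 to 861 on leaving out 1 array. Between the perinatal OIL groups they ran from 0 to 253. No paired analysis was possible because the labels number the animals on their own and no number links animals of different groups.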
